A study of Mus musculus with 8 samples.

Results

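The genes examined here encode the eIF4F cap-binding machinery of translation and its repressors, the 4E-BPs. They were taken from the count table by gene symbol, and all 10 symbols matched 1 row each of the 54838 genes in the table: Eif4a1, Eif4a2, Eif4b, Eif4h, Eif4e, Eif4g1, Eif4g2, Eif4g3, Eif4ebp1 and Eif4ebp2. All 10 passed the filter on low counts, with between 3187 (Eif4ebp1) and 64633 (Eif4g2) counts over the 8 samples.

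The samples hold RNA of AML (acute myeloid leukaemia) cells of C57BL/6 background carrying RUNX1-RUNX1T1, a fusion of a blood transcription factor with a corepressor, after transplantation into Ptprca recipients. Per the labels the recipients of both groups had been sub-lethally irradiated, whereas the methods of the study state irradiation only for its other models. The 4 samples of the Vehicle group came from mice that received vehicle, and the 4 samples of the AG636 group from mice dosed orally with 100 mg/kg of AG636 b.i.d., which per the study lasted 1 day. AG636 inhibits DHODH, the mitochondrial enzyme that makes orotate in pyrimidine synthesis. Cells were sorted from bone marrow and spleen, which the study describes as cKit-high in its text and as cKit-positive and CD11b-negative in a legend, but which tissue gave which sample is not stated, nor are the age and sex of the mice. Nothing in the labels says that each sample is a separate mouse, and the legend of the study counts fewer mice than the 4 samples of each group, so p-values measure the spread between samples, which may share a mouse. Libraries were made from the 3′ end of transcripts (QuantSeq), in which a count stands for a transcript with little dependence on its length. Levels are given in CPM, counts set relative to the scaled library size, and may be compared between genes on that basis, though capture of reads was not calibrated between genes.

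eIF4F is the complex that brings the small ribosomal subunit to the capped 5′ end of an mRNA. eIF4E binds the cap, the scaffold eIF4G holds eIF4E together with the helicase eIF4A and the poly(A)-binding protein, and eIF4B or eIF4H raises the activity of the helicase on structured leaders. The 4E-BPs compete with eIF4G for eIF4E and are released from it when the kinase mTORC1 phosphorylates them, a switch that acts on protein and is not seen in RNA counts.

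Transcripts of the main helicase, one of its cofactors and 2 scaffolds were lower in AG636. Eif4b fell by 43.5%, Eif4a1 fell by 42.4%, Eif4g1 fell by 27.1% and Eif4g2 fell by 21.9%. No member rose. The cap-binding protein Eif4e, the helicase paralog Eif4a2, the cofactor Eif4h, the scaffold Eif4g3 and the repressors Eif4ebp1 and Eif4ebp2 did not pass the test, although the log2 fold change of each was below 0. In limma-voom, 4 of 10 members were therefore lower, against 8.49% of the 10911 genes tested that were lower and 5.47% that were higher, or 14% in either direction. The members were chosen with earlier results of these data known, so such shares describe them and do not test them as a set. The log2 fold change was negative for 10 of 10 members and for 50.6% of all genes tested, and the median was −0.25 over the members and −0.01 over all genes tested. With library size alone as the scaling these medians were −0.18 and 0.06, and 3 of 10 members were lower, beside 571 lower and 918 higher of all 10911 genes tested. The groups did not overlap for 5 members, all lower in AG636, against 12.9% of genes tested with such a separation in that direction and 9.35% in the other.

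The libraries held 6120030 to 7162036 counts. Of the progenitor list, Kit, Myb, Gata2 and Runx1 averaged 163 to 447 CPM in Vehicle, and Cd34, Ptprc and Runx1t1 averaged 8.63, 3.87 and 13.1 CPM. Of the mature myeloid list, Itgam, which encodes CD11b, and Ly6g had at most 4 and 5 counts in any sample, whereas S100a8 and S100a9 reached 526 and 489 counts. Genes of the red cell lineage summed to 4663 to 8886 CPM in Vehicle and 7759 to 9325 CPM in AG636, with 1 of 8 listed genes, Hbb-bt, higher in AG636 (log2 fold change 0.90, adjusted p = 0.0238, limma-voom). The mature myeloid list summed to 45.3 to 106 CPM in Vehicle and 18.4 to 209 CPM in AG636 with 0 of 6 tested genes called. The B cell list summed to 5.53 to 10.8 CPM and 8.78 to 19.2 CPM with 1 of 4 tested genes (Cd79a) higher. The T and NK cell list summed to 3.195 to 9.44 CPM and 3.99 to 19.8 CPM with 0 of 1 tested gene called. That gene, Nkg7, was at 0.304 to 8.01 CPM in Vehicle and 1.56 to 17.7 CPM in AG636. Of the untested genes of that list, Klrb1c and Ncr1 were at or near 0. Cd3d, Cd3e, Trac, Cd3g and Gzma averaged 0.535, 0.231, 0.457, 0.381 and 0.264 CPM in Vehicle. In AG636 they averaged 1.33, 0.802, 1.09, 0.378 and 0.341 CPM. The progenitor list summed to 1168 to 1359 CPM in Vehicle and 1370 to 1571 CPM in AG636, with 0 of 7 genes called. The part of these lists in the changes below was not tested, and a bulk sample cannot tell fewer cells of a type from less RNA per cell. Vehicle sample 4 stood apart from the other Vehicle samples (chi-square per degree of freedom 8.52 to 12, against 3.69 to 4.27 among the other three), and AG636 samples differed more from each other (12.9 to 22.6). Without Vehicle sample 4 the log2 fold changes of Eif4a1, Eif4b and Eif4g1 were −0.73, −0.81 and −0.44 in limma-voom (adjusted p = 0.00799, 0.00839 and 0.0412).

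**Figure D1:**
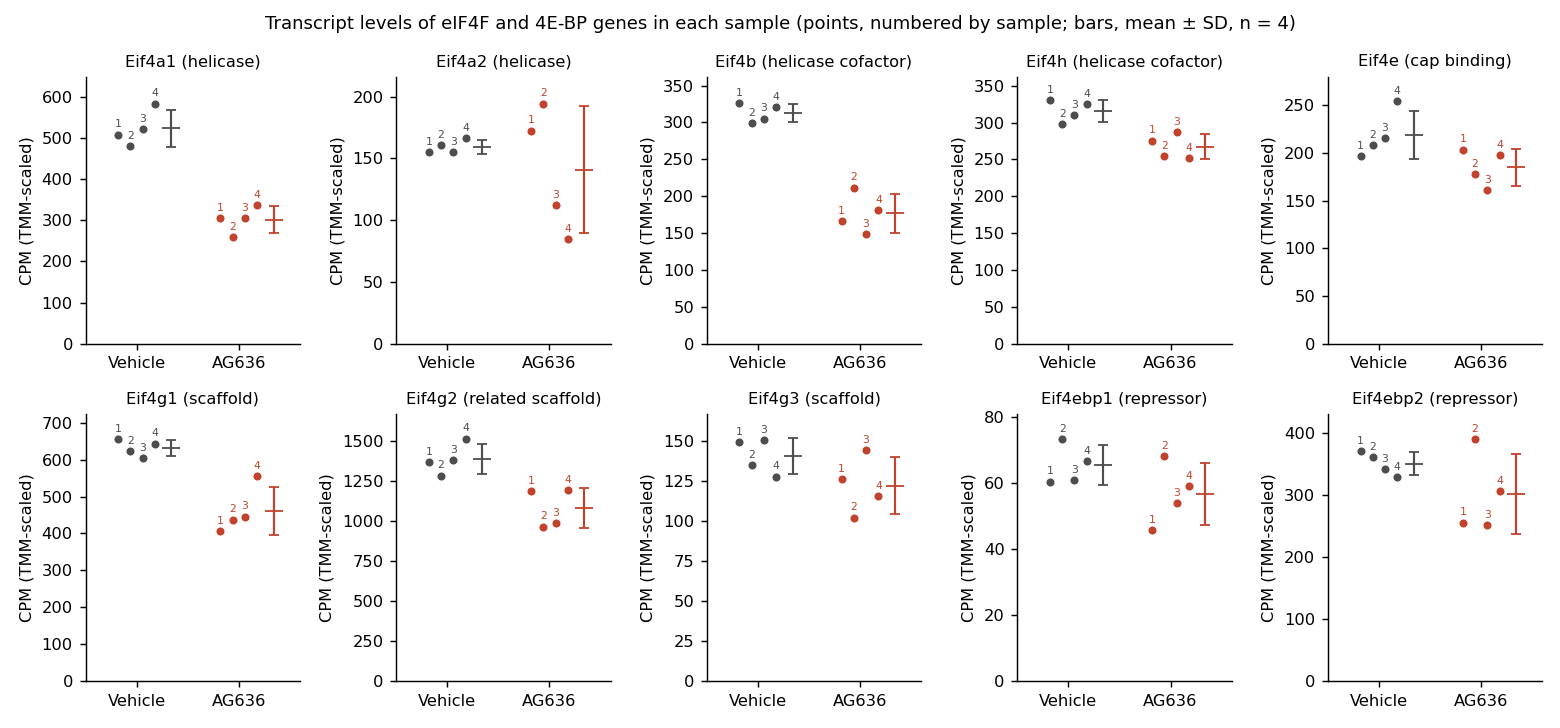
Transcript level of each gene (vertical axis, TMM-scaled CPM, from 0) in the 4 Vehicle and 4 AG636 samples; points are samples, numbered within the group, and bars are the mean ± SD (n = 4). The AG636 points lie below every Vehicle point for Eif4a1, Eif4b, Eif4h, Eif4g1 and Eif4g2, and the AG636 points of Eif4a2 lie on both sides of its Vehicle points.

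The helicase module was examined first. Eif4a1 (ENSMUSG00000059796, minus strand, chr11:69666936-69672423, GRCm38) encodes the main DEAD-box RNA helicase of eIF4F. Its level was 509, 480.1, 522 and 585 CPM in Vehicle samples 1 to 4 and 305, 258, 306 and 337 CPM in AG636 samples 1 to 4. Every AG636 sample lay well below every Vehicle sample. The mean fell by 42.4%, from 524 ± 44.0 to 302 ± 32.4 CPM (SD, n = 4). The log2 fold change was −0.80 (SE 0.10, 95% interval −1.02 to −0.58, adjusted p = 0.00185, limma-voom), which placed it at rank 39 of all genes tested by p-value.

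Eif4a2 (ENSMUSG00000022884, plus strand, chr16:23107444-23114136) encodes the closely related second helicase. It was at 155, 161, 155 and 167 CPM in Vehicle and at 173, 194, 112 and 84.6 CPM in AG636. The Vehicle samples were nearly level, whereas AG636 samples 1 and 2 stood above all of them and samples 3 and 4 below all of them. The coefficient of variation was 3.49% in Vehicle and 36.4% in AG636, and the means of 159.5 ± 5.57 and 141 ± 51.3 CPM did not differ beyond this spread (log2 fold change −0.26, SE 0.22, adjusted p = 0.459, limma-voom). The log2 fold change was −0.02 without AG636 sample 4 and −0.44 without AG636 sample 2. Its 3′ end overlaps that of Rfc4 (chr16:23113943-23127737), on the opposite strand, by 194 bases. The counting rule for strand was not stated, so reads there cannot be assigned with certainty. Rfc4, a subunit of the clamp loader of DNA replication, was at 23.5, 25.5, 31.1 and 40.3 CPM in AG636, so it was lowest in the samples where Eif4a2 was highest. Its own Vehicle levels were 33.1 to 41.1 CPM.

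The summed level of both helicase genes separated the groups, at 683 ± 47.7 CPM in Vehicle and 443 ± 28.3 CPM in AG636. The sum lay between 641 and 751 CPM in Vehicle and between 418 and 478 CPM in AG636, and was thus more even over the AG636 samples than Eif4a2 alone. The ratio of Eif4a1 to Eif4a2 counts was 2.98 to 3.51 in Vehicle and 1.77, 1.33, 2.74 and 3.99 in AG636 samples 1 to 4. It was below the Vehicle range in 3 AG636 samples and above it in 1, and the difference did not pass (exact two-sided permutation p = 0.229, adjusted p = 0.514 over 6 ratios).

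Eif4b (ENSMUSG00000058655, plus strand, chr15:102073773-102097173) encodes an RNA-binding cofactor of eIF4A and a substrate of S6 kinases. The gene was at 326, 299, 305 and 321 CPM in Vehicle and at 166, 212, 148 and 181 CPM in AG636. The lowest Vehicle sample was well above the highest AG636 sample. The mean fell by 43.5%, from 313 ± 12.6 to 177 ± 26.8 CPM (SD, n = 4). Its log2 fold change was −0.83 (SE 0.11, 95% interval −1.07 to −0.60, adjusted p = 0.00195, limma-voom), rank 44 by p-value. AG636 samples 2 and 4, in which Eif4b was least reduced, also had the highest summed mature myeloid levels. These were 166 and 209 CPM, against 18.4 and 24.3 CPM in samples 1 and 3. Eif4h, described next, was instead lowest in samples 2 and 4, and the part of those cells was not tested.

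Eif4h (ENSMUSG00000040731, minus strand, chr5:134619721-134639490) encodes a smaller cofactor of the helicase with partial similarity to eIF4B. The level was 331, 298, 310.1 and 325 CPM in Vehicle and 276, 255, 287 and 252 CPM in AG636. The groups did not overlap, but the closest samples, at 287 and 298 CPM, were near each other. The log2 fold change of −0.24 (SE 0.08, 95% interval −0.42 to −0.07) did not pass in limma-voom (adjusted p = 0.0639). It did with DESeq2 (adjusted p = 0.0404) and without AG636 sample 3 (0.0439), and over all alternatives its adjusted p lay between 0.0404 and 0.193.

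The 2 cofactors had almost equal counts in every Vehicle sample. The Eif4b to Eif4h count ratio was 0.985, 1.005, 0.984 and 0.987 in Vehicle samples 1 to 4, and 0.602, 0.830, 0.516 and 0.719 in AG636 samples 1 to 4. The Vehicle ratios lay close together, and each AG636 ratio was lower. The mean ratio was 0.990 ± 0.010 in Vehicle and 0.667 ± 0.137 in AG636, a log2 difference of −0.59 that reached the smallest p the design can give (exact two-sided permutation p = 0.0286 over 70 relabellings) but did not pass after adjustment over the 6 ratios (adjusted p = 0.171). A ratio within a sample does not depend on library scaling and shows unequal change only.

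**Figure D2:**
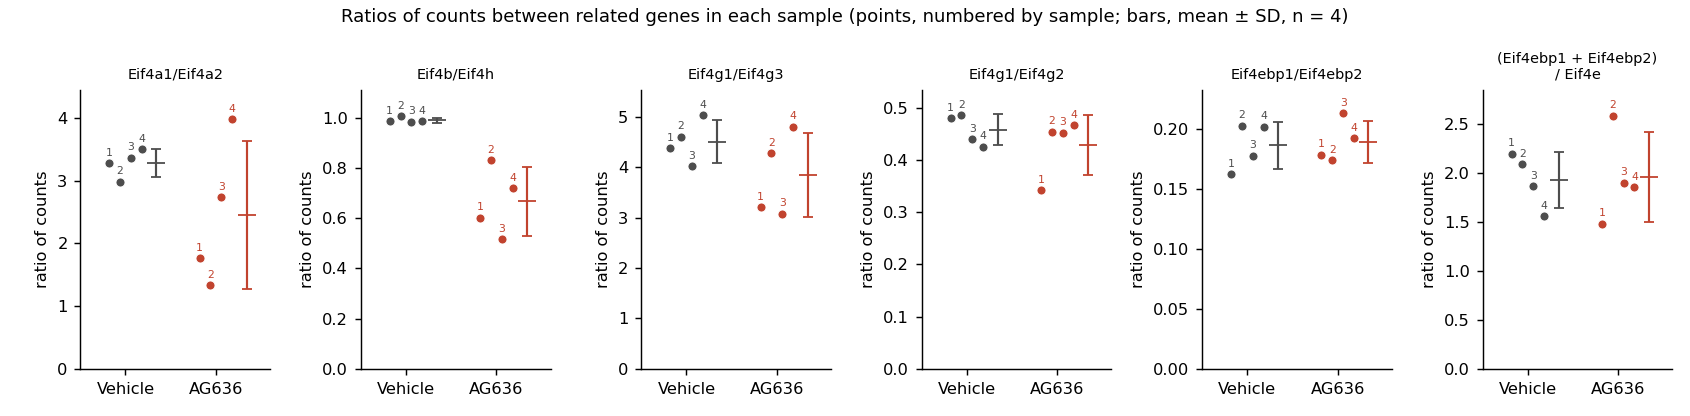
Ratio of counts between related genes (vertical axis, unitless, from 0) in each sample; points are samples, numbered within the group, and bars are the mean ± SD (n = 4). Eif4b/Eif4h is the only ratio of the 6 whose AG636 points all lie below the Vehicle points, and the AG636 points of Eif4a1/Eif4a2 run from 1.33 to 3.99.

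For the cap-binding protein, Eif4e (ENSMUSG00000028156, plus strand, chr3:138526179-138559696), the level was 197, 208, 216 and 254 CPM in Vehicle and 204, 178, 161 and 198 CPM in AG636. AG636 samples 1 and 4 lay within the Vehicle range and samples 2 and 3 below it. The log2 fold change was −0.24 (SE 0.11, 95% interval −0.47 to −0.01, adjusted p = 0.151, limma-voom), and the call stayed on the same side of the threshold in all 20 alternatives. A processed pseudogene, Gm7327, matches the last 500 bases of an Eif4e transcript and held 6 counts over the 8 samples. Likewise, the pseudogene Gm2999 matches 307 bases of Eif4a2 at 99.3% identity and held 0 counts. Whether reads with several hits were dropped is not stated, so these counts cannot show if reads of Eif4e or Eif4a2 were lost.

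Of the scaffolds, Eif4g1 (ENSMUSG00000045983, plus strand, chr16:20668313-20692884) encodes the classical eIF4G that joins eIF4E to eIF4A and eIF3. Its level was 656, 623, 605 and 643 CPM in Vehicle and 406, 437, 445 and 555 CPM in AG636. The groups did not overlap, and AG636 sample 4 came closest to Vehicle. The mean fell by 27.1%, from 632 ± 22.4 to 461 ± 65.1 CPM (SD, n = 4), and the log2 fold change was −0.46 (SE 0.10, adjusted p = 0.0136, limma-voom).

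Eif4g2 (ENSMUSG00000005610, minus strand, chr7:111067750-111083030) encodes DAP5, a related scaffold that lacks the eIF4E-binding region. It was the most abundant member, at 1368, 1281, 1377 and 1512 CPM in Vehicle and 1186, 963, 985 and 1191 CPM in AG636. The groups did not overlap, though AG636 samples 1 and 4 came near the lowest Vehicle sample. The mean fell by 21.9%, from 1384 ± 95.3 to 1081 ± 124 CPM (SD, n = 4), and the log2 fold change was −0.36 (SE 0.10, adjusted p = 0.0360, limma-voom). This was the weakest of the 4 calls, since it was lost with library size alone as the scaling (adjusted p = 0.0977) and without any 1 of Vehicle samples 1 to 4 or AG636 samples 2 and 3 (adjusted p = 0.0538 to 0.110, the last without Vehicle sample 4).

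Eif4g3 (ENSMUSG00000028760, plus strand, chr4:137993022-138208508) encodes the second canonical eIF4G. It was at 149.6, 135, 151 and 128 CPM in Vehicle and at 126, 102, 145 and 116 CPM in AG636. AG636 sample 3 lay inside the Vehicle range and the other three below it (log2 fold change −0.21, SE 0.11, adjusted p = 0.221, limma-voom). The sum of the canonical scaffolds Eif4g1 and Eif4g3 was 773 ± 22.9 CPM in Vehicle and 583 ± 63.8 CPM in AG636 without overlap. Neither the ratio of Eif4g1 to Eif4g3 (means 4.51 and 3.84, exact permutation p = 0.257) nor that of Eif4g1 to Eif4g2 (0.458 and 0.429, exact permutation p = 0.514) differed beyond the spread of the samples.

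Of the repressors, Eif4ebp1 (ENSMUSG00000031490, plus strand, chr8:27260329-27276674) was the least abundant member. Its level was 60.3, 73.3, 60.8 and 66.6 CPM in Vehicle and 45.7, 68.0, 53.8 and 59.0 CPM in AG636. AG636 sample 2 lay within the Vehicle range and the other three below it. The difference did not pass (log2 fold change −0.21, SE 0.13, adjusted p = 0.273, limma-voom).

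Eif4ebp2 (ENSMUSG00000020091, minus strand, chr10:61428491-61452661) was about as abundant as the helicase cofactors in Vehicle. With Eif4ebp1 at a mean of 65.3 CPM in Vehicle and Eif4ebp3 at 0 counts, it had the most counts of the 4E-BP genes. Whether reads of Eif4ebp3 were lost was not examined. It was at 371, 361, 342 and 329.7 CPM in Vehicle and at 256, 391, 252 and 307 CPM in AG636. AG636 sample 2 was above every Vehicle sample and the other three were below all of them. The log2 fold change was −0.24 (SE 0.13, adjusted p = 0.240, limma-voom), and without AG636 sample 2 it was −0.37 and passed (adjusted p = 0.0286). AG636 samples 2 and 4, which had the higher mature myeloid sums, were higher for Eif4ebp2, as for Eif4b and Eif4ebp1. In contrast, those samples were the lowest for Eif4h (255 and 252 CPM) and Eif4g3 (102 and 116 CPM). The other members followed neither order, and a link with these sums was not tested.

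The balance between repressors and cap-binding protein was then asked of the RNA. Eif4ebp1 and Eif4ebp2 together made 416 ± 19.6 CPM in Vehicle and 358 ± 73.3 CPM in AG636, with overlap. The ratio of their summed counts to Eif4e counts was 2.19, 2.09, 1.86 and 1.56 in Vehicle samples 1 to 4. In AG636 samples 1 to 4 it was 1.48, 2.58, 1.90 and 1.85. Capture of reads was not calibrated between genes, and a loss of Eif4e reads to its pseudogene could not be judged. The ratio therefore does not count molecules. The mean ratio was 1.93 ± 0.281 in Vehicle and 1.95 ± 0.459 in AG636 (exact permutation p = 1), and the log2 difference ranged from −0.14 to 0.13 as each sample was left out. The ratio of Eif4ebp1 to Eif4ebp2 was 0.186 ± 0.020 in Vehicle and 0.190 ± 0.018 in AG636 (exact permutation p = 0.743).

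Arranged by mean CPM in Vehicle, the order was Eif4g2, Eif4g1, Eif4a1, Eif4ebp2, Eif4h, Eif4b, Eif4e, Eif4a2, Eif4g3 and Eif4ebp1, from 1384 to 65.3 CPM. The Vehicle ranges of Eif4ebp2 and Eif4h overlapped, as did those of Eif4h and Eif4b, and no other neighbours in this order did. In AG636 the order was the same except that Eif4b, at 177 CPM, passed below Eif4e, at 185 CPM, and the ranges of these 2 genes then overlapped.

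Taken sample by sample, 9, 7, 9 and 10 of the 10 members were below the Vehicle mean in AG636 samples 1 to 4. The median difference from the Vehicle mean was −0.34, −0.38, −0.48 and −0.25 on the log2 CPM scale. Eif4a1 was the most reduced member in sample 2 (−1.02), Eif4b in samples 1 and 3 (−0.91 and −1.07) and Eif4a2 in sample 4 (−0.91). The members above the Vehicle mean were Eif4a2 in samples 1 and 2 (0.11 and 0.29), Eif4g3 in sample 3 (0.04) and both 4E-BPs in sample 2 (0.06 for Eif4ebp1 and 0.16 for Eif4ebp2).

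**Figure D3:**
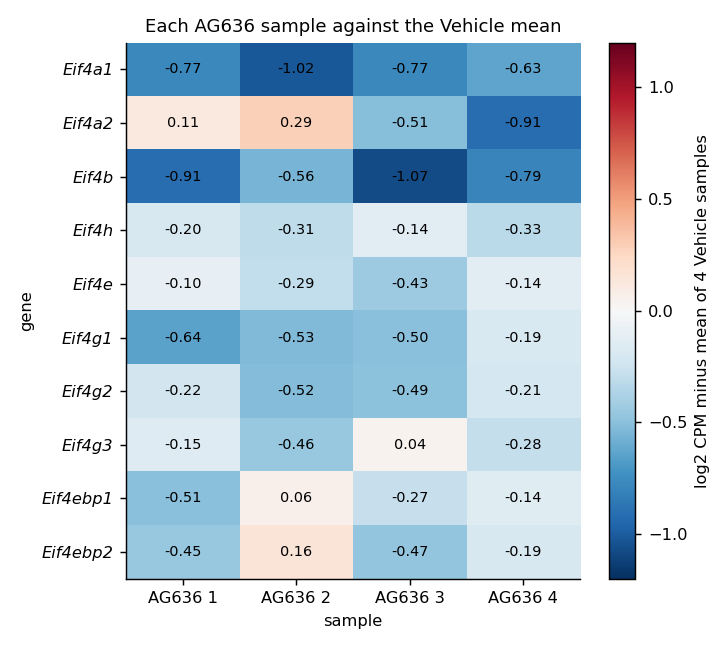
Difference of each AG636 sample (columns) from the mean of the 4 Vehicle samples for each gene (rows), on the log2 CPM scale and written in each cell; blue is lower and red is higher. Eif4a1, Eif4b, Eif4h, Eif4e, Eif4g1 and Eif4g2 are below 0 in all 4 samples, whereas Eif4a2 runs from 0.29 to −0.91.

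The promoters of members that moved were compared by sequence. RefSeq windows (GRCm38.p6, from 250 bases before to 50 bases past a gene's start) matched 8 of the 10 members by symbol, all but Eif4g2 and Eif4ebp1. The 250 bases before the start of the pair with the lowest fold changes are printed below, with the E-box CACGTG, the letters bound by Myc with Max and by other factors of their class, in capitals. The Eif4a1 stretch is chr11:69672424-69672673 on the minus strand and the Eif4b stretch is chr15:102073523-102073772 on the plus strand.
Eif4a1: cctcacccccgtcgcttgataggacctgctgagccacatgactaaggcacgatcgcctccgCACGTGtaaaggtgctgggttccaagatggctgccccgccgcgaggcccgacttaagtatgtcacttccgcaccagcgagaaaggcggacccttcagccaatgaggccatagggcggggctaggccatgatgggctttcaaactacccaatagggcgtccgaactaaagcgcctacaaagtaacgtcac
Eif4b: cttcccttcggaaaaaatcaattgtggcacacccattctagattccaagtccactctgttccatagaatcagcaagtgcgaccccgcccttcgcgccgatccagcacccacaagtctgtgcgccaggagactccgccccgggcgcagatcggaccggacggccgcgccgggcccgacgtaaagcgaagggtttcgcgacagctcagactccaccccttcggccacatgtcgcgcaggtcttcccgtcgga
Eif4a1 held 1 E-box, at position −189 from the start, and Eif4b held none in its window.

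Of the 8 members with a window, 4 held the E-box: Eif4a1, Eif4h, Eif4e and Eif4g1. It was in 7.15% of all 32851 RefSeq windows of the same length. Here and below, such shares count single windows, expressed or not. A member counted if any of its windows matched, so the figures are not like for like. The motifs and members were also chosen with earlier results of these data known, so these shares are a description only. Eif4g1 and Eif4e, the latter at a second RefSeq start, held the letters at 2 positions each. The stretches around these matches are given below to show the flanking bases, again with the matched letters in capitals. Those of Eif4e and that of Eif4g1 at position 16 lie within an annotated exon.
Eif4h, chr5:134639491-134639514, minus strand, position −96: ccgccgcacCACGTGggccgcaga
Eif4e, chr3:138527031-138527054, plus strand, position −228: gccagcgacCACGTGatcactttt
Eif4e, chr3:138527195-138527218, plus strand, position −64: cacgtccgtCACGTGggcaggagc
Eif4g1, chr16:20672664-20672687, plus strand, position −54: agtgggtgtCACGTGatggggcgg
Eif4g1, chr16:20672733-20672756, plus strand, position 16: tgcgccggtCACGTGgggcgctgg
Members with and without the letters were found on both sides of the threshold: Eif4a1 and Eif4g1 fell with it, Eif4b fell without it, and Eif4h and Eif4e held it and did not pass. Myc itself was at 97.6 ± 19.3 CPM in Vehicle and 56.6 ± 7.12 CPM in AG636 (log2 fold change −0.77, SE 0.15, adjusted p = 0.00867, limma-voom), and its part in these values was not tested.

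Other motifs were searched on both strands in the same windows. The YY1 letters AAGATGGCG, no part of which is an E-box, were present only in Eif4e among the 8 members, against 1.4% of all windows. The match lies at position 27 past the second start, within an annotated exon.
Eif4e, chr3:138527285-138527311, plus strand: gatcgatctAAGATGGCGactgtggaa
Yy1 RNA was at 192 ± 3.33 CPM in Vehicle and 187 ± 17.4 CPM in AG636 (adjusted p = 0.773, limma-voom). The ETS letters CCGGAAGT were in 0 of 8 members and in 3.89% of windows, and the GC box GGGCGGGG was in 4 of 8 members (Eif4a1, Eif4a2, Eif4b and Eif4h) and in 17.6% of windows. A match of letters is a description and not a bound site. Only these exact letters were searched, and related spellings of a motif were not counted. A window without a match may therefore still hold a similar sequence. The Eif4a1 stretch above, for example, holds aagatggct, which differs from the YY1 letters only in its last base.

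The partners of the complex at the cap and at the poly(A) tail were read from the same fit. Of 20 listed genes 18 were tested, Eif4e3 and Eif4ebp3 having too few counts (at most 6 and 0 in any sample). Of the 18, 7 were lower in AG636 and 0 higher, against 8.49% and 5.47% of all genes tested, and the median log2 fold change was −0.24. This list too was chosen with earlier results of these data known, so its shares are a description only. The groups did not overlap for 9 lower and 1 higher gene, against 12.9% and 9.35% of all genes tested. With library size alone 4 of the 18 were lower and 1 higher, beside 571 and 918 of all 10911 genes. Without Vehicle sample 2 or sample 3, 4 of the 18 were called, beside 8.27% and 6.19% of all genes tested in those fits.

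Among the nuclear cap-binding proteins, which hold the cap before export, Ncbp2 went from 89.4 ± 2.79 to 60.4 ± 5.97 CPM (log2 fold change −0.57, SE 0.09, adjusted p = 0.00447, limma-voom). Ncbp1 went from 114 ± 5.79 to 83.5 ± 9.40 CPM (log2 fold change −0.45, adjusted p = 0.0131). Eif4e2, the cap-binding homologue 4EHP that represses translation, fell from 111 ± 6.29 to 87.4 ± 5.54 CPM (log2 fold change −0.35, adjusted p = 0.0204), a call lost without any 1 of Vehicle samples 2 to 4 and with library size alone. Ncbp3, the other nuclear cap-binding gene of the list, named here after its values were seen, was at 149 ± 9.70 CPM in Vehicle and 140.0 ± 9.87 CPM in AG636 and did not pass (log2 fold change −0.09, adjusted p = 0.499, limma-voom).

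At the poly(A) tail, Pabpc4, an inducible poly(A)-binding protein, had the lowest fold change of the partners. It was at 693, 646, 691 and 917 CPM in Vehicle and 438, 486, 359 and 497 CPM in AG636, without overlap (log2 fold change −0.73, SE 0.13, adjusted p = 0.00708, limma-voom). The main poly(A)-binding protein Pabpc1 was at 3196, 3320, 3316 and 2934 CPM in Vehicle and at 2157, 3693, 2586 and 2663 CPM in AG636. AG636 sample 2 was above every Vehicle sample and the other three below all of them, as for Eif4ebp2, and the difference passed only without AG636 sample 2 (adjusted p = 0.307 with it and 0.0240 without it). Paip2, which takes poly(A)-binding protein off the tail, fell from 264 ± 10.5 to 212 ± 13.2 CPM (adjusted p = 0.0226), a call lost without any 1 of Vehicle samples 1 to 3 and with library size alone.

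Larp1, which binds the cap of terminal oligopyrimidine mRNAs under mTORC1 control, fell from 339 ± 15.99 to 250.1 ± 19.4 CPM (log2 fold change −0.44, SE 0.08, adjusted p = 0.0075, limma-voom). Mknk2, a kinase that phosphorylates eIF4E, went from 125 ± 4.57 to 95.6 ± 15.5 CPM (adjusted p = 0.0436), but this call was lost in 14 of 20 alternatives. Pdcd4, an inhibitor of eIF4A, was at 238 ± 22.9 CPM in Vehicle and 299.9 ± 83.1 CPM in AG636 and did not pass (log2 fold change 0.30, SE 0.17, adjusted p = 0.251). Gigyf2, a partner of 4EHP named here after its values were seen, had non-overlapping groups with the higher values in AG636 (74.5 ± 3.03 and 89.6 ± 4.93 CPM) and an adjusted p of 0.0504, which passed in 10 of 20 alternatives.

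**Figure D4:**
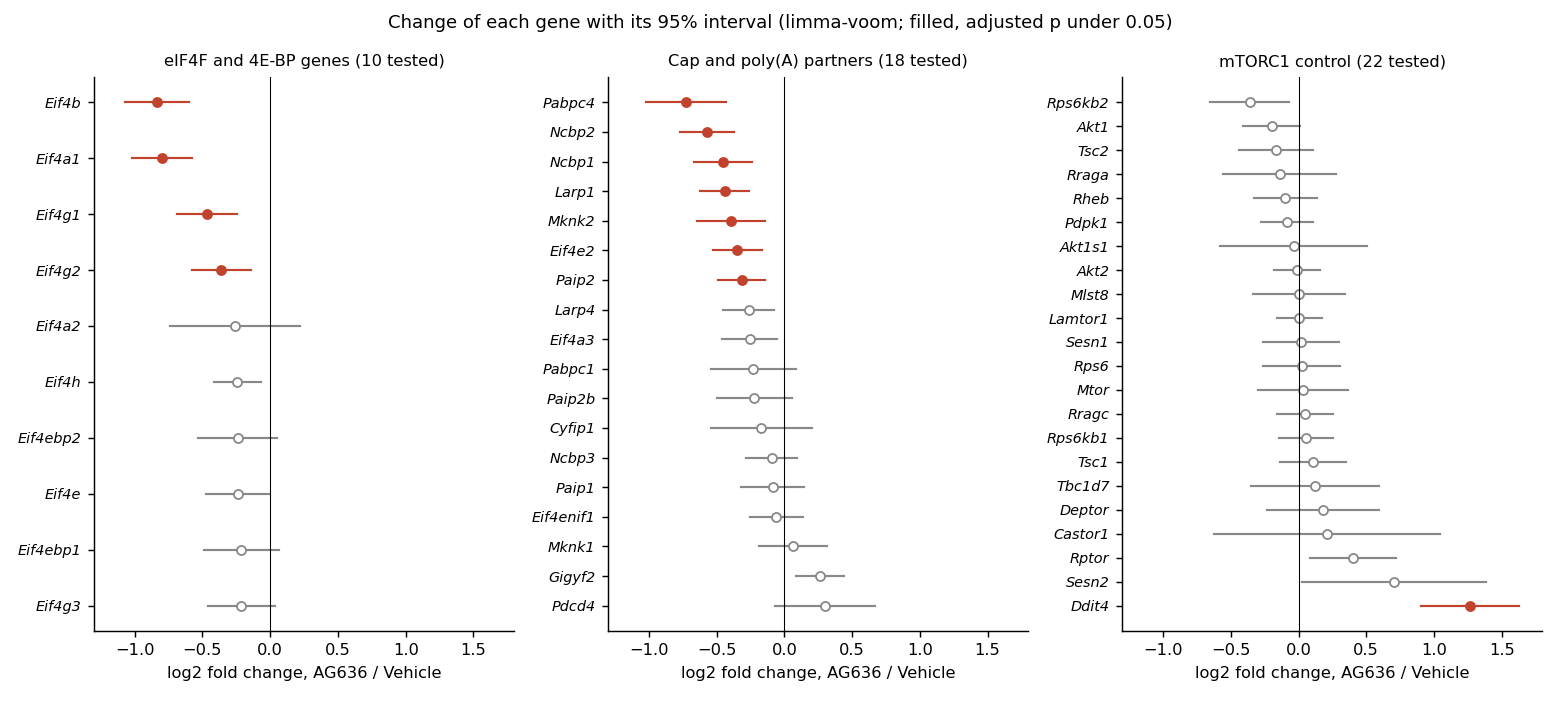
Log2 fold change of AG636 against Vehicle (horizontal axis) with its 95% interval from limma-voom for the eIF4F and 4E-BP genes, their cap and poly(A) partners and the mTORC1 control genes; filled points had an adjusted p under 0.05. The called genes of the left and middle panels are all below 0, and Ddit4 is the only filled point of the right panel.

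The genes that control mTORC1, the kinase upstream of the 4E-BPs and of S6 kinase, were also read from this fit. Of 22 genes tested, 0 were lower and 1 higher (4.55%), against 8.49% and 5.47% of all genes tested, and the median log2 fold change was 0.02. The share higher was thus near that of all genes. As for the other lists, the choice was made with earlier results of these data known. The 1 gene was Ddit4, a stress-induced inhibitor of mTORC1, at 16.5, 18.9, 15.8 and 14.5 CPM in Vehicle and 30.01, 46.6, 43.3 and 39.8 CPM in AG636. The groups were far apart (log2 fold change 1.27, SE 0.16, adjusted p = 0.00214, limma-voom), and the call held in all 20 alternatives.

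The other genes named by rule from this list did not pass. Mtor was at 26.4 ± 4.31 CPM in Vehicle and 26.9 ± 3.49 CPM in AG636 (adjusted p = 0.909, limma-voom). Rps6kb1, an S6 kinase, was at 110.4 ± 8.59 and 115 ± 8.34 CPM (adjusted p = 0.727). Rptor, the scaffold that brings 4E-BPs to the kinase, was at 24.0 ± 3.28 and 31.8 ± 5.03 CPM (log2 fold change 0.40, adjusted p = 0.0847), and it passed with sample quality weights, with library size alone and without AG636 sample 3.

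Finally, the genes most like each member were listed by Pearson's r of log2 CPM over the 8 samples, among tested genes whose log2 CPM averaged at least 5. These values describe 8 samples in 2 groups, so a shared difference between the groups raises r. Eif4a1 was closest to Gpatch4, Sod2 and Srsf2 (r = 0.997, 0.995 and 0.994), and Eif4b to Tmem214, Rif1 and the base excision repair endonuclease gene Apex1 (0.990, 0.986 and 0.985). For the scaffolds, Eif4g1 was closest to Gspt1, which encodes the termination factor eRF3 (0.988), to Rnf219 and to Ripk1 (0.986 and 0.985). Eif4g2 went with Psmd12, Polr2j and Glo1 (0.995, 0.991 and 0.989), and Eif4g3 with Cited2, Cbfb, which encodes the binding partner of RUNX1, and Lrrc8b (0.988, 0.971 and 0.959). Eif4h was closest to Got2, Sdhd and Pfdn2 (0.984, 0.978 and 0.976), and Eif4e to Rbbp5, Tmem183a and Ddx39 (0.973, 0.973 and 0.971). The uneven Eif4a2 followed Thrap3, Spg7 and Mbtps1 (0.962, 0.957 and 0.946). The closest genes of the 4E-BPs were Cabin1, Fbrsl1 and Kcnq1ot1 for Eif4ebp1 (0.932, 0.928 and 0.922) and Rab3gap1, Nap1l4 and Steap3 for Eif4ebp2 (0.966, 0.964 and 0.961), and no gene was listed for 2 members.

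**Figure D5:**
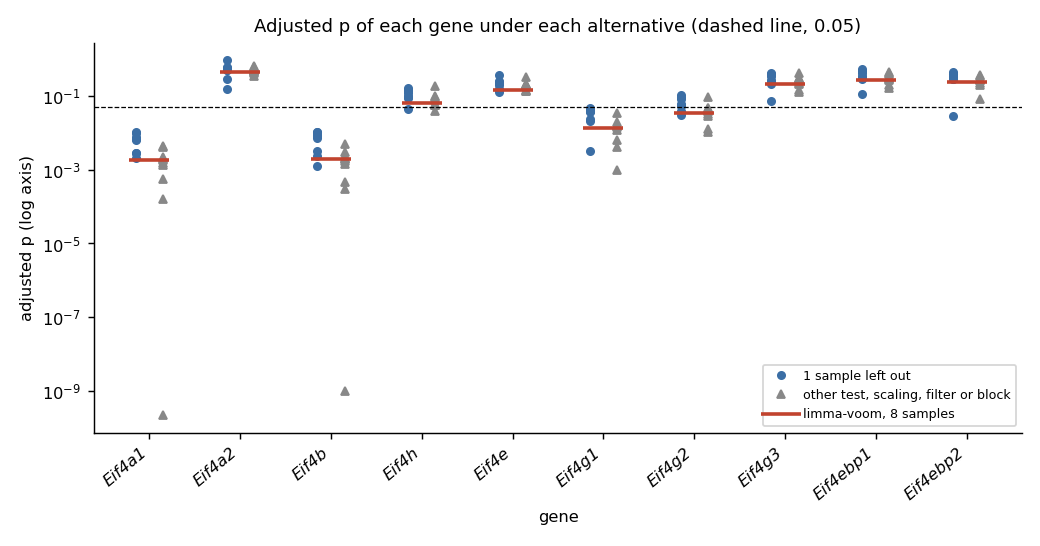
Adjusted p of each gene (vertical axis, log scale) under limma-voom with all 8 samples (bars), with 1 sample left out (circles) and under the other tests, scalings, filters and the block (triangles); the dashed line marks 0.05. Eif4a1, Eif4b and Eif4g1 lie below the line throughout, Eif4g2, Eif4h and Eif4ebp2 lie on both sides, and Eif4a2, Eif4e, Eif4g3 and Eif4ebp1 lie above it throughout.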

How the data were processed

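For 4 Vehicle and 4 AG636 samples, raw counts of reads for each gene were deposited. Per the labels the authors used cutadapt 1.9.1, HISAT2 2.0.4 and featureCounts of Subread 1.5.0-p3 with GRCm38/mm10. The methods of the study give other versions of cutadapt and Subread, and the treatment of strand and of reads with several hits is not given in the sources used here. All 8 count columns matched a sample title. Genes were kept by filterByExpr (minimum count 10), libraries were scaled by TMM factors (0.961 to 1.05), and the groups were compared in R 4.3.3 with limma-voom (edgeR 4.0.16, limma 3.58.1), the tool that the study names, using group alone as a term. P-values are two-sided and adjusted by Benjamini-Hochberg over 10911 genes, with a threshold of 0.05. Levels are CPM with the SD over 4 samples, and 3 counts correspond to 0.434 to 0.479 CPM. Log2 CPM used a prior count of 2.

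Ratios of counts (0.5 added to each) were compared on the log2 scale by permutation (exact, two-sided, 70 relabellings), adjusted over 6 ratios. Genes sharing reads were sought by matching the last 500 bases of transcripts (GENCODE M21, at least 75 bases at 95% identity). Motifs were exact letters in RefSeq windows. On simulated counts of 10911 genes, 10805 passed the filter, limma-voom recovered 70% of 200 genes changed by 1 log2 unit, and 4.11% of its calls were false. The simulation gave both groups the same spread and as many rises as falls. The AG636 samples here varied more than the Vehicle samples, so these shares need not hold for them. DESeq2 1.42.0 and the other 19 alternatives are given with the limits.

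The members, lists and motifs were chosen with earlier results of these data known. The text names the 10 members, the called genes of each list plus Pdcd4, Pabpc1, Eif4e2, Mtor, Rptor and Rps6kb1, marker genes, genes that may share reads, and the 3 genes most like each member. Differing from this rule, Gigyf2, Ncbp3, Myc and Yy1 were added. No pair of replicates agreed within sampling noise.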

Additional observations from a re-analysis of the deposited data

Results flagged for a closer look

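In groups of 4 samples, a sample was singled out when its gap to the nearest other sample, divided by the range of the group, exceeded the 95% critical value of Dixon's test. Of 32 groups examined (16 measures in both groups), 2 had such a sample, where chance gives about 1.6. The log2 ratio of Eif4b to Eif4h was 0.0074 in Vehicle sample 2 and −0.0232 to −0.019 in the other Vehicle samples, all far above the AG636 samples, whose mean was −0.61. The log2 ratio of Eif4g1 to Eif4g2 was −1.5478 in AG636 sample 1 and −1.145 to −1.1018 in the other AG636 samples. That sample had the lowest Eif4g1 level of its group (406 CPM), beside an Eif4g2 level of 1186 CPM. Without AG636 sample 1 the log2 difference of this ratio between the groups was 0.0011 in place of −0.10.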

How the results depend on the processing

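Over the 20 alternatives, the sign of the log2 fold change was kept for all 10 members, and of 200 pairs of member and alternative 188 kept their side of the threshold, 9 lost a call and 3 gained one. The calls of Eif4a1 and Eif4b held throughout, and Eif4g1 was lost only at an adjusted p under 0.01. At that threshold 2 members, 3 partners and 435 of all genes were called. With sample quality weights or library size alone, 2 mTORC1 control genes (9.09%) were called, beside 17.3% and 13.6% of all genes tested in those fits. Library size alone called 571 genes lower and 918 higher, where TMM scaling gave 926 and 597, and moved the median log2 fold change of all genes from −0.01 to 0.06. With each sample left out in turn, 3 to 4 members, 4 to 9 partners, 1 to 2 mTORC1 control genes and 688 to 1706 of all genes were called, the last lowest without Vehicle sample 3. The log2 difference ranged from −0.0376 to 0.0688 for Eif4ebp1/Eif4ebp2, from −0.1401 to 0.1272 for the 4E-BPs over Eif4e and from −0.1476 to 0.0011 for Eif4g1/Eif4g2, and from −0.10 (without Vehicle sample 1) to 0.1104 for Mtor, which was −0.037 without AG636 sample 1. The causes were not tested. Eif4b/Eif4h ranged from −0.71 to −0.48.

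Same-numbered samples did not all deviate together (r = −0.14, 0.01, 0.20 and 0.14 for numbers 1 to 4). AG636 samples 3 and 4 correlated best with the Vehicle sample of their own number, but AG636 samples 1 and 2 did so with Vehicle sample 4. The numbers were therefore not taken to pair the samples. With the replicate number as a block 4 members, 7 partners, 1 mTORC1 control gene and 1446 of all genes were called, and the paired ratio test, which cannot go below 0.125, gave 0.125 for Eif4b/Eif4h. The partners Eif4e3 and Eif4ebp3 had at most 6 and 0 counts in any sample, for reasons that were not tested, whereas each member had at least 294 counts in every sample.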
